A study of Mus musculus with 4 samples.

Results

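The genes described here make, take up, store and sense cholesterol. They are 30 named genes: 18 enzymes that build cholesterol from acetyl-CoA, 5 genes that sense sterols and switch the pathway on or off, 4 genes of lipoprotein uptake and lysosomal release, and 3 genes of cholesterol transfer, storage and ester cleavage. They were chosen by name, with earlier results of these data known, and all 30 were found among the 28595 genes of the count table. Counts came from mouse testis sections profiled by photo-isolation chemistry, a method in which only RNA from tissue lit with ultraviolet light is carried into the library. There were 4 groups of 3 libraries: wild-type mice, titled young, with the entire section irradiated, H3t KO mice with the entire section irradiated, and wild-type (titled young) and H3t KO sections irradiated at Leydig cells. H3t is a histone H3 variant of the testis, and the labels name the mutant only as H3t KO. The sources used here give no age for the KO mice, so genotype and age cannot be told apart. The 3 libraries of a group were deposited together as 1 sample, so anything shared by handling them together cannot be told apart from the group. Nothing in the labels ties single libraries to single animals, and the p-values below therefore describe library-to-library spread, which may be technical.

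Cholesterol is made from acetyl-CoA through mevalonate and the isoprenoid farnesyl diphosphate, then through squalene and lanosterol to a series of sterols. When sterols are scarce, Scap carries the SREBP transcription factors (encoded by Srebf1 and Srebf2) to the Golgi, where they are cut and released to switch on the pathway, and Insig proteins hold Scap back when sterols are plentiful. Leydig cells, which lie between the seminiferous tubules, use cholesterol as the raw material of testosterone and keep it as esters in lipid droplets. Germ cells also run the pathway, and spermatids are known for an abundant form of the demethylase Cyp51 and for their own form of the lipase Lipe.

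Entire-section libraries held 247539 to 566527 counts and Leydig-targeted libraries 5947 to 54882, so Leydig-targeted values rest on few counts. The targeted gene, H3f4, had 1 count in 1 wild-type section and 0 in the other 11 libraries, which is too few to check any label. The labelled Leydig targeting was checked against 13 Leydig marker genes, of which 12 were analysed. They summed to 13192 to 28586 CPM (the count divided by the library total, times 1000000) in wild-type Leydig-targeted libraries and 3262 to 6540 in wild-type sections. In H3t KO they summed to 65411 to 80155 CPM in Leydig-targeted libraries and 36240 to 43248 in sections. Spermatocyte and spermatid markers, 15 genes, held 21355 to 34930 CPM in wild-type Leydig-targeted libraries, 34272 to 62384 in wild-type sections, 138 to 988 in H3t KO sections and 0 to 132 in H3t KO Leydig-targeted libraries. The wild-type Leydig-targeted libraries therefore contained germ cell transcripts as well. In such bulk libraries, fewer cells of a type and less RNA per cell cannot be told apart.

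On GRCm38, the protein-coding genes on which the results turn lie as follows: Hmgcs1 at chr13:119690379-119708260 (plus strand), Msmo1 at chr8:64718139-64733792 (minus strand), Fdft1 at chr14:63145150-63179578 (minus strand), Insig1 at chr5:28071363-28078662 (plus strand), Insig2 at chr1:121304353-121332589 (minus strand), Lipa at chr19:34492318-34527474 (minus strand) and Lipe at chr7:25379527-25398710 (minus strand). Promoters were read for 24 of the 30 genes from RefSeq (build GRCm38.p6), in windows of 300 bases, 250 before and 50 after each annotated start. Searched on both strands, the NF-Y box CCAAT, bound by a factor that works beside SREBP, lay in a window of 21 of the 24 genes, against 41.1% of the 27025 genes in the table, and in 22 of their 33 windows, against 37.4% of all windows. The E-box CACGTG lay in windows of 6 genes (8.09% of all genes) and the sterol regulatory element TCACNCCAC, the SREBP motif, in 1 (1.44%). Its shorter form CACCCCAC, which overlaps it, lay in windows of 2 genes (3.3%), the SF-1 site CAAGGTCA in 1 (1.76%) and the CREB or CREM site TGACGTCA in 0 (2.03%). The 250 bases before the start are shown 5′ to 3′ for 2 enzymes whose counts rose together and for the Insig pair, which moved in opposite directions in sections, with all motif matches in capitals. They lie at chr13:119690101-119690350 (plus strand, Hmgcs1), chr8:64733579-64733828 (minus strand, Msmo1), chr5:28071162-28071411 (plus strand, Insig1) and chr1:121332590-121332839 (minus strand, the outermost of 3 Insig2 starts).
Hmgcs1: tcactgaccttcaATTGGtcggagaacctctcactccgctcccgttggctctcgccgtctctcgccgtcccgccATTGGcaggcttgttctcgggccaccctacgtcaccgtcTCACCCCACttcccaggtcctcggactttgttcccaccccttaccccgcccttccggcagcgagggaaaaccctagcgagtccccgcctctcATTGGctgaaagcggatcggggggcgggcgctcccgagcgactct
Msmo1: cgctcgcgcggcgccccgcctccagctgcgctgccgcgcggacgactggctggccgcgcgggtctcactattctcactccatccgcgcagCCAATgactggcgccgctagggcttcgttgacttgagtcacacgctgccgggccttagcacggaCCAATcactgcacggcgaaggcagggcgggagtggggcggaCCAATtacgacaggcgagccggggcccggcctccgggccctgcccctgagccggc
Insig1: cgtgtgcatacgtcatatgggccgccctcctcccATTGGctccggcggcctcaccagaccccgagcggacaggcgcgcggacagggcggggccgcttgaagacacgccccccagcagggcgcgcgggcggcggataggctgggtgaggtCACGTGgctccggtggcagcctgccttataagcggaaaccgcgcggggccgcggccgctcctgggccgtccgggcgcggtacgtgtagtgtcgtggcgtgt
Insig2: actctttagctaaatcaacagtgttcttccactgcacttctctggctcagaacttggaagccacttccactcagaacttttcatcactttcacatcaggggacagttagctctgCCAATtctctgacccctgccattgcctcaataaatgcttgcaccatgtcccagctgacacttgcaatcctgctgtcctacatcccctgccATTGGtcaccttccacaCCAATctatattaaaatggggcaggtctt
Capitals reading ATTGG are the NF-Y box on the other strand. Hmgcs1 holds the only full sterol regulatory element among the 24 genes, at position -137 counted from its start, with NF-Y boxes at -237, -176 and -45. Insig1 holds an E-box at -101 and an NF-Y box at -216. Msmo1 holds 3 NF-Y boxes, at -160, -96 and -55. Insig2 holds 3 at this start, at -136, -46 and -29, and neither of its other 2 windows held a match to any of these motifs. A match in such a window is a description of the letters only.

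Across entire sections, transcripts of the 18 synthesis enzymes took a larger share of counts in H3t KO than in wild type. Their summed level was 1893 ± 161 CPM (SD, n = 3) in H3t KO and 410 ± 70.0 CPM in wild type, a 4.62-fold difference with no overlap between libraries. Leydig-targeted libraries gave 4194 ± 650 CPM in H3t KO and 944 ± 101 CPM in wild type, a 4.44-fold difference, again with no overlap. The Leydig marker sum differed by 7.48-fold between the section groups and by 3.17-fold between the Leydig-targeted groups. Per 100 Leydig marker counts, the enzymes had 4.73 ± 0.73 counts in H3t KO sections and 8.33 ± 3.45 in wild-type sections, and 5.83 ± 1.18 and 4.67 ± 2.23 in the Leydig-targeted groups. On that scale the H3t KO sections lay just below the wild-type ones, the highest H3t KO library at 5.40 and the lowest wild-type library at 5.43, and the Leydig-targeted groups overlapped. The share of Leydig marker transcripts thus moved with the enzymes, and its part in the results below was not tested.

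**Figure D1:**
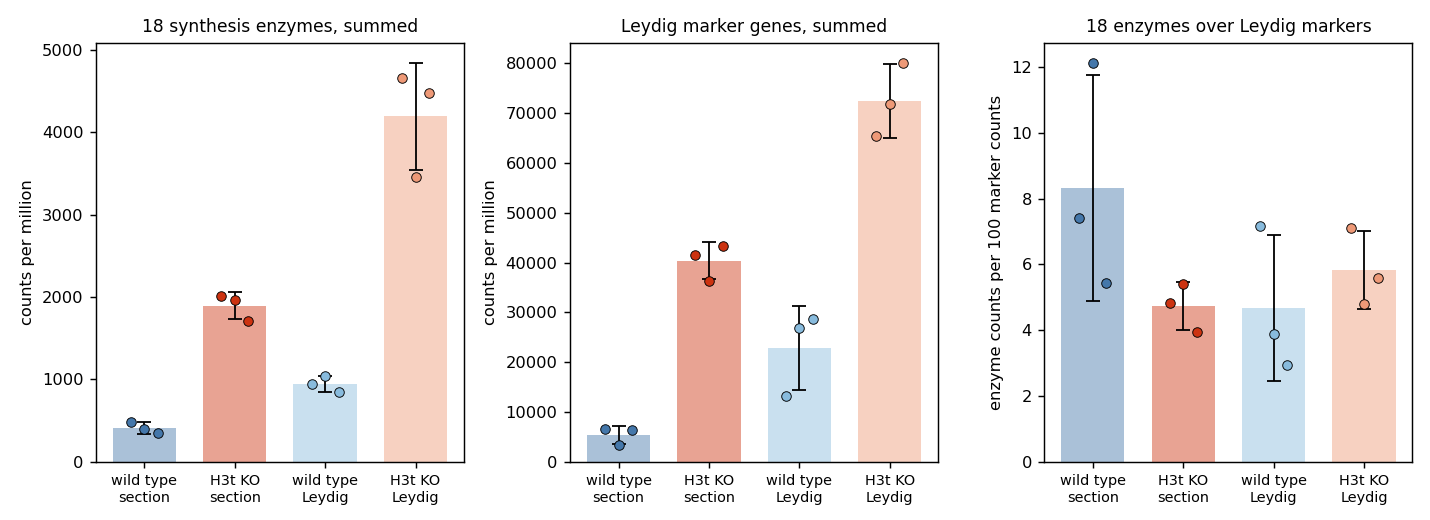
Summed CPM of the 18 synthesis enzymes (left) and of the 12 analysed Leydig markers (middle), and enzyme counts per 100 Leydig marker counts (right), in the 4 groups; bars are means, whiskers 1 SD, points single libraries (n = 3). The enzyme sum averages 1893 CPM in H3t KO and 410 in wild-type sections, whereas per 100 marker counts the order of the section groups is the opposite, at 4.73 and 8.33.

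Each gene was then tested with edgeR's quasi-likelihood test in a fit of all 12 libraries, scaled by trimmed means (TMM), and called at a Benjamini-Hochberg adjusted p under 0.05. Of the 30 genes, 19 passed the expression filter, which asked for about 66.1 CPM in at least 3 libraries. Fdps, Hsd17b7, Insig1 and Lipa lay under that level in every wild-type library, and Lipe in every H3t KO library. Each of these passed only through the genotype where it was high, so the counts and medians below are not independent of the filter. Comparing H3t KO with wild-type sections, 11 of the 19 were higher and 2 lower, while 22.6% of all 5182 tested genes were higher and 39.1% lower. The median log2 difference was 1.76 over the 19 and -0.35 over all tested genes. By library size alone the median of all tested genes was 0.22, and 14 of the 19 were called higher and 2 lower, against 35.9% and 32.9% of all tested genes. With libraries scaled to Leydig marker counts, the median of all tested genes was -2.75, 0 of the 19 were higher and 8 were lower (Fdft1, Sqle, Cyp51, Scarb1, Insig2, Npc1, Npc2 and Lipe), against 0.193% and 80.8% of all tested genes. That scaling moved all 19 by a similar amount, -2.28 to -2.47, so a sign that turns under it marks a smaller TMM-scaled difference. Without any fit, 24 of the 30 genes had every H3t KO section above every wild-type section in CPM, 16 of them among the 19, and 39.6% of all tested genes did so.

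**Figure D2:**
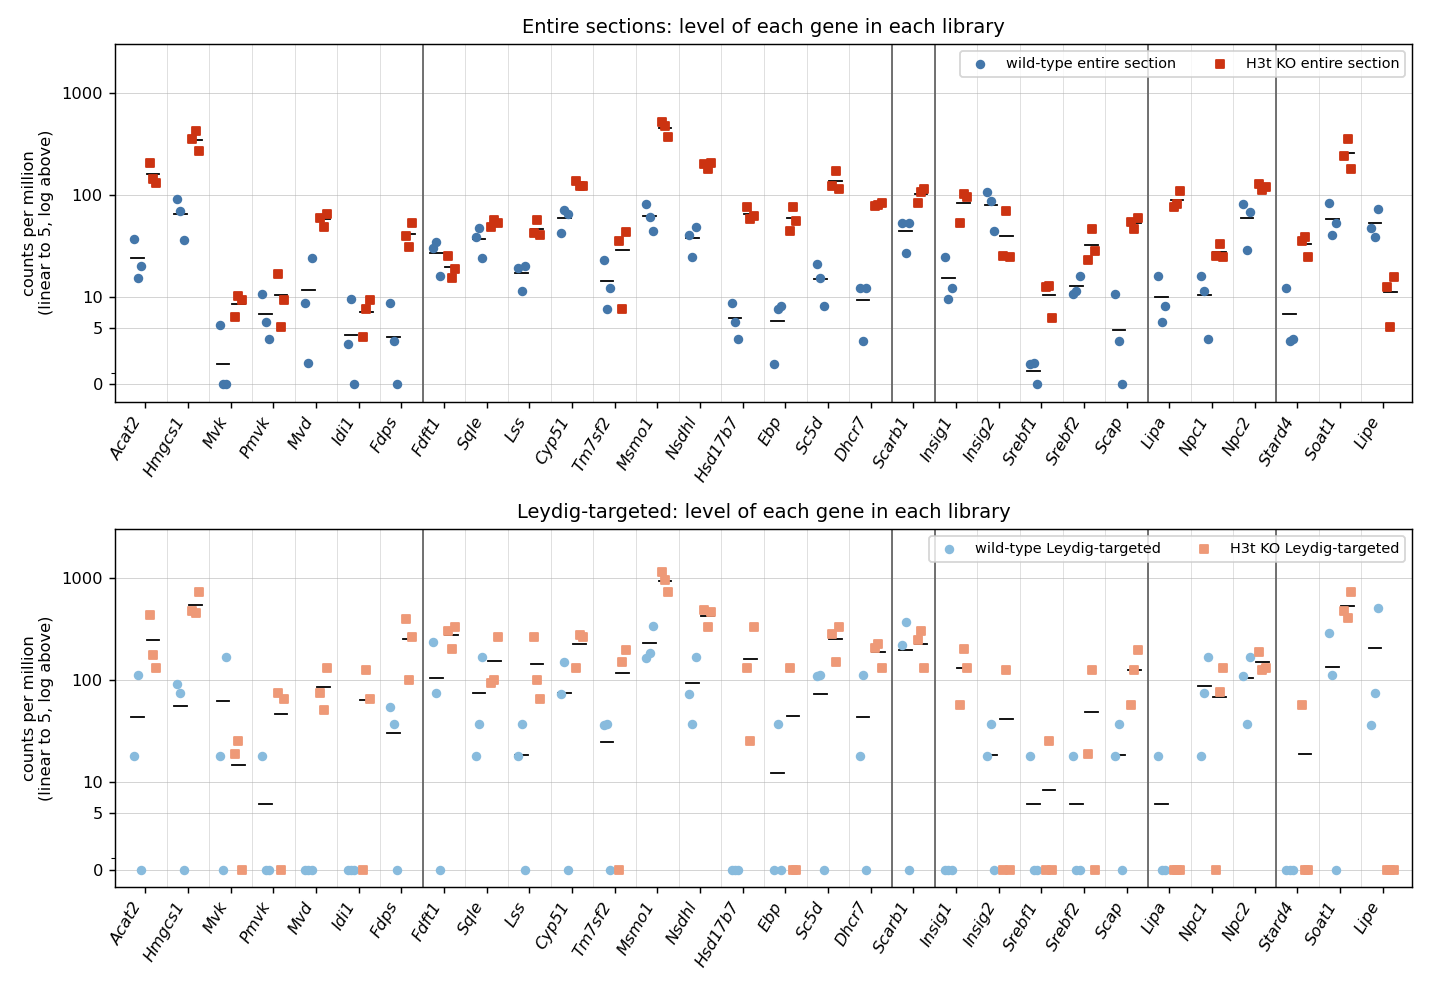
CPM of all 30 genes in each library, in entire sections (top) and Leydig-targeted libraries (bottom), on an axis that is linear up to 5 and logarithmic above; short lines are group means and vertical grey lines separate the role groups. Msmo1 lies between 367 and 519 CPM in H3t KO sections and between 44.4 and 81.2 in wild-type ones, while Lipe lies lower in every H3t KO section; many genes are at 0 in single Leydig-targeted libraries.

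Of 7 early mevalonate enzymes 3 were tested, and all 3 were higher in H3t KO sections, against 22.6% of all tested genes. The direction of Acat2 and Hmgcs1 reversed under Leydig marker scaling (-0.23 and -0.64). Hmgcs1, the HMG-CoA synthase that commits acetyl units to the pathway, had 353, 421 and 267 CPM in H3t KO sections and 91.8, 68.9 and 36.4 in wild-type sections. Every H3t KO section was above every wild-type one, by 1.76 ± 0.46 on the log2 scale (SE, adjusted p = 3.65e-04). The SE of a log2 difference, here and below, was worked back from the test. It is the absolute difference divided by the square root of the F statistic. Acat2, the thiolase that joins the first acetyl units, had 204, 143 and 131 CPM in H3t KO sections and 37.1, 15.3 and 20.2 in wild type. Its groups did not overlap, with a log2 difference of 2.11 ± 0.48 (adjusted p = 3.00e-05). Fdps, which makes farnesyl diphosphate, had 39.9, 30.6 and 52.8 CPM against 8.83, 3.83 and 0, again without overlap (2.34 ± 0.68, adjusted p = 0.00138). Without wild-type section replicate 1 the Fdps and Acat2 differences grew to 3.41 and 2.83, without H3t KO section replicate 2 that of Fdps to 2.94, and without H3t KO Leydig-targeted replicate 3 those of Fdps, Acat2 and Hmgcs1 to 2.94, 2.72 and 2.37. Mvd, the decarboxylase that makes the first isoprenoid unit, was not tested here but had 68 counts in H3t KO and 12 in wild-type sections, a ratio of count shares of 6.37 (3.42 to 12.9, exact 95% interval for counting error only). Mvk, Pmvk and Idi1, the kinases of mevalonate and phosphomevalonate and the isomerase after them, had at most 13 counts in either section group, and their intervals included a ratio of 1.

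Along the sterol branch, 5 of the 8 tested enzymes of 11 rose in H3t KO sections, against 22.6% of all tested genes, and 3 were not called. Under Leydig marker scaling Msmo1 (-0.17) and Nsdhl (-0.54) reversed. Msmo1, which oxidises methyl groups of the sterol ring, had 519, 472 and 367 CPM in H3t KO sections and 81.2, 61.2 and 44.4 in wild type, with no overlap and a log2 difference of 2.24 ± 0.48 (adjusted p = 1.10e-05). Nsdhl, a dehydrogenase that acts with it in removing those methyl groups, had 202, 178 and 205 CPM against 40.6, 24.9 and 48.5, also without overlap (1.83 ± 0.48, adjusted p = 3.37e-04). Hsd17b7, the ketoreductase of the same step, had 75.7, 58.65 and 62.2 CPM against 8.83, 5.74 and 4.04 (2.66 ± 0.63, adjusted p = 7.56e-05). These 3 enzymes act together in sterol demethylation. In each, every H3t KO section lay above every wild-type one, as in 39.6% of all tested genes. Sc5d, a sterol desaturase, had 122, 171 and 115 CPM in H3t KO sections and 21.2, 15.3 and 8.08 in wild type (2.47 ± 0.50, adjusted p = 3.55e-06). Dhcr7, a sterol reductase at the end of the pathway, had 77.8, 79.05 and 83.9 CPM against 12.4, 3.83 and 12.1 (2.53 ± 0.57, adjusted p = 3.28e-05). Ebp, the isomerase before Sc5d, was below the filter, with 69 counts in H3t KO and 7 in wild-type sections, a ratio of 11.1 (5.10 to 28.6 by counting error). Without H3t KO Leydig-targeted replicate 3 the 5 differences were larger, at 2.45 for Nsdhl, 2.86 for Msmo1, 3.08 for Sc5d, 3.14 for Dhcr7 and 3.27 for Hsd17b7, and without wild-type section replicate 1, on the same genes, that of Dhcr7 was 3.17.

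The enzymes from squalene synthase to the lanosterol demethylase were not called between the section groups where tested. Fdft1, squalene synthase, had 25.2, 15.3 and 18.6 CPM in H3t KO sections and 30.01, 34.4 and 16.2 in wild type, and these overlapped (log2 difference -1.07 ± 0.55, adjusted p = 0.0778). Sqle, which forms squalene epoxide, had 48.3, 56.1 and 52.8 CPM against 38.8, 47.8 and 24.2. Its H3t KO libraries were all higher by a narrow margin, but the TMM-scaled difference was -0.16 ± 0.48 (adjusted p = 0.788), a direction that turned to 0.44 by library size alone. Cyp51, the lanosterol demethylase, had 137, 122 and 121 CPM against 42.4, 70.8 and 64.6, with no overlap and a difference of 0.49 ± 0.44 that was not called (adjusted p = 0.332). Under Leydig marker scaling these 3 enzymes were called lower (Fdft1 -3.49, Sqle -2.59, Cyp51 -1.98). Lss, which closes the ring to lanosterol, had 55 and 22 counts, a ratio of 2.81 (1.69 to 4.84), and Tm7sf2, a sterol reductase, 34 and 20, a ratio of 1.91 (1.07 to 3.50). Summed by position, Fdft1, Sqle, Lss and Cyp51 reached 245 ± 10.4 CPM in H3t KO and 140 ± 21.3 in wild-type sections (1.75-fold), whereas Msmo1, Nsdhl, Hsd17b7, Ebp, Sc5d and Dhcr7 reached 988 ± 86.1 and 137 ± 25.6 (7.23-fold). This split was chosen after the values were seen and was not tested. In Leydig-targeted libraries the same 2 sums were 798 ± 120 against 271 ± 92.1 CPM (2.95-fold) and 2019 ± 356 against 451 ± 75.7 CPM (4.48-fold). Fdft1 shares 774 exon bases with Ctsb and Cyp51 shares 166 with Akap9, both on the opposite strand. The sources used here give no strand setting for the counting. How reads in shared bases were counted is not known, so these counts may have gained or lost reads there. Tm7sf2 likewise shares 532 exon bases with Vps51 on its own strand. Ctsb, a lysosomal protease, had 514 CPM over the summed H3t KO sections and 107 over the wild-type ones, and its part here was not tested either.

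**Figure D3:**
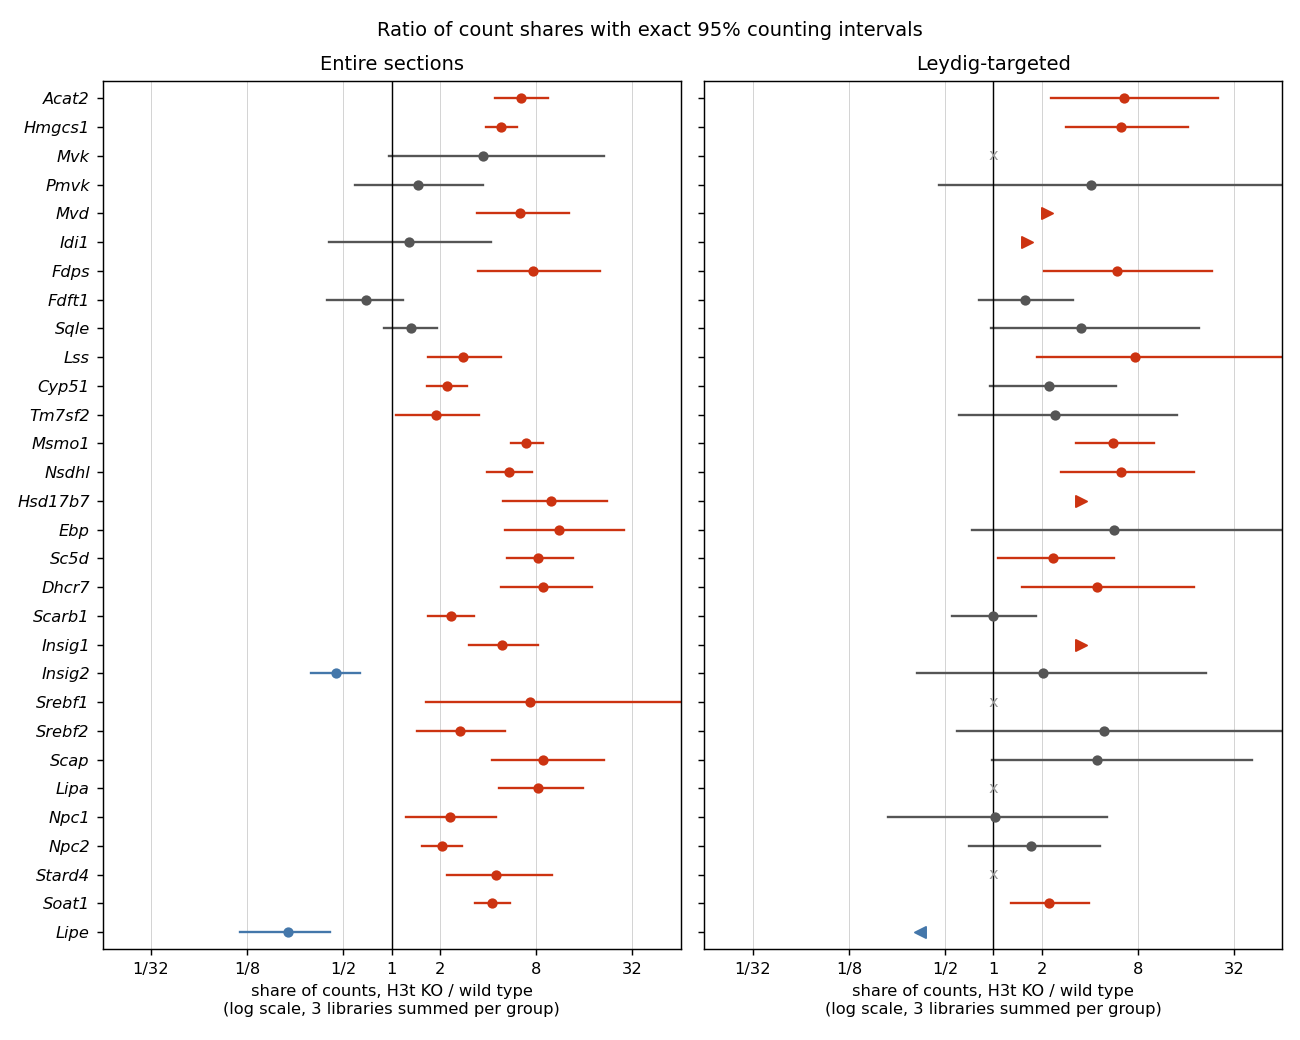
Ratio of count shares, H3t KO over wild type, with the 3 libraries of each group summed, in entire sections (left) and Leydig-targeted libraries (right), on a log scale. Lines are exact 95% counting intervals. Arrows mark ratios in which a group with 0 counts was set to 3 counts, given without an interval. Crosses mark genes with at most 3 counts in both groups. In sections Msmo1 stands at 6.94, Fdft1 at 0.69 and Lipe at 0.22; these are shares of library counts, and under Leydig marker scaling the Msmo1 direction reverses.

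The 2 Insig genes moved in opposite directions between sections, except under Leydig marker scaling, where both values were negative (Insig1 -0.53, not called, and Insig2 -4.02). Insig1, the sterol sensor whose own transcription SREBP drives, had 52.5, 102 and 96.3 CPM in H3t KO sections and 24.7, 9.57 and 12.1 in wild type. All H3t KO sections were above all wild-type ones (1.77 ± 0.53, adjusted p = 0.00175), and the difference was 2.60 without wild-type section replicate 1 (same genes) and 2.37 without H3t KO Leydig-targeted replicate 3. Insig2, the related sensor that holds Scap in the same way but is not driven by SREBP, had 25.2, 68.8 and 24.9 CPM in H3t KO sections and 108, 88.01 and 44.4 in wild type. Its second H3t KO library lay above the lowest wild-type library, so the groups overlapped, with a log2 difference of -1.65 ± 0.46 (adjusted p = 8.41e-04). Without that library, on the same genes, the Insig2 difference was -2.25, and without H3t KO Leydig-targeted replicate 3 it was -1.04, both still called. Scap, the sterol-sensing escort of SREBP, was below the filter and had 63 counts in H3t KO and 8 in wild-type sections, a ratio of 8.85 (4.23 to 21.4). Srebf2, which encodes the SREBP that favours cholesterol genes, had 38 and 16 counts, a ratio of 2.67 (1.45 to 5.13), and Srebf1 13 and 2, a ratio of 7.30 (1.65 to 66.7). Srebf1 shares 109 exon bases with Rai1 on the opposite strand, which had 21 counts in H3t KO and 13 in wild-type sections. The Srebf1 counts may therefore have gained or lost reads in the shared bases, and this was not tested. Scap, Srebf1 and Srebf2, all below the filter, each had every H3t KO section above every wild-type one, as did 39.6% of all tested genes. For Srebf1 this rests on few counts, with wild-type sections at 0 to 1.91 CPM.

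**Figure D4:**
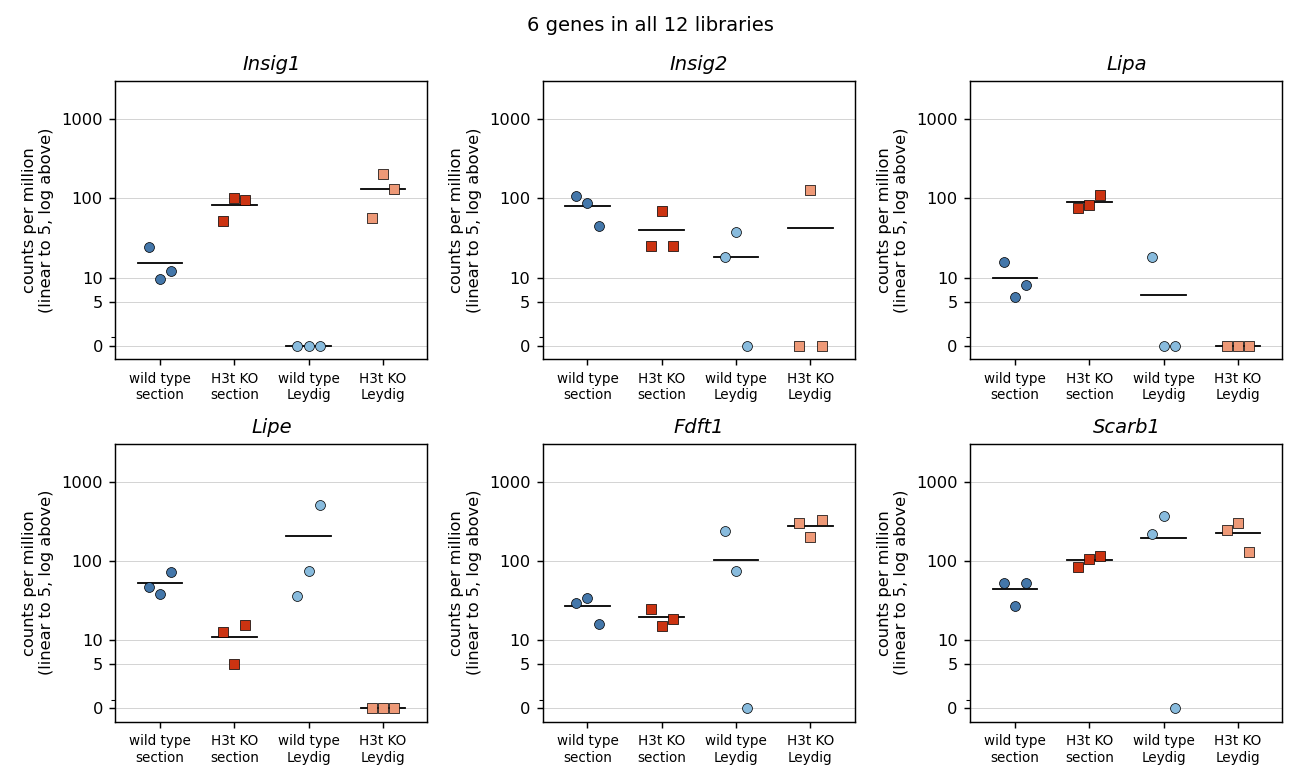
CPM of 6 genes in all 12 libraries, on an axis linear up to 5 and logarithmic above; points are libraries and lines group means (n = 3). Insig1 is at 0 in all 3 wild-type Leydig-targeted libraries, Lipa and Lipe are at 0 in all 3 H3t KO Leydig-targeted libraries, and Fdft1 and Scarb1 are higher in most Leydig-targeted libraries than in sections, except wild-type replicate 3, where both are at 0.

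Among the 4 uptake and lysosomal genes, 1 was called higher in H3t KO sections, and 3 were not called at the TMM scale. That share is near the 22.6% of all tested genes that were higher. Lipa, the lysosomal lipase that frees cholesterol from lipoprotein esters, had 75.7, 81.6 and 109 CPM in H3t KO sections and 15.9, 5.74 and 8.08 in wild type. The groups were far apart (2.49 ± 0.58, adjusted p = 4.81e-05), and the difference was 3.34 without wild-type section replicate 1 (same genes) and 3.09 without H3t KO Leydig-targeted replicate 3. Scarb1, the receptor through which rodent steroid cells take cholesterol ester from high-density lipoprotein, had 84.1, 107 and 115 CPM against 53.0, 26.8 and 52.5, with no overlap (0.66 ± 0.46, adjusted p = 0.20). Npc2 and Npc1, which hand cholesterol out of the lysosome, had 112 to 128 CPM against 28.7 to 81.2 and 24.9 to 33.1 CPM against 4.04 to 15.9, again without overlap (0.48 ± 0.43, adjusted p = 0.337, and 0.66 ± 0.63, adjusted p = 0.368). Under Leydig marker scaling Scarb1, Npc1 and Npc2 were called lower (-1.68, -1.67 and -1.85). Macrophage markers, 10 genes, summed to 1952 ± 919 CPM in H3t KO and 302 ± 116 in wild-type sections. All 6 tested macrophage markers were called higher, and their part in the Lipa value was not tested.

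Of the 2 tested genes of storage and ester cleavage, Soat1 was higher and Lipe lower in H3t KO sections. Over all tested genes 22.6% were higher and 39.1% lower. Lipa, which also frees cholesterol from esters, was higher, as given above. Soat1, which esterifies cholesterol for storage, had 238, 349 and 177 CPM in H3t KO sections and 83.0, 40.2 and 52.5 in wild type, without overlap (1.53 ± 0.47, adjusted p = 0.00226). The direction of Soat1 reversed to -0.78 under Leydig marker scaling, and the difference was 2.15 without wild-type section replicate 1 (same genes) and 2.13 without H3t KO Leydig-targeted replicate 3. Lipe, hormone-sensitive lipase, which cleaves the stored esters, had 12.6, 5.10 and 15.5 CPM in H3t KO sections and 47.7, 38.3 and 72.7 in wild type. Every H3t KO section was lower (-2.73 ± 0.60, adjusted p = 1.61e-05), and the value was -2.12 without H3t KO Leydig-targeted replicate 3 and -5.08 under Leydig marker scaling. All 14 tested spermatocyte and spermatid markers were lower in H3t KO sections as well, and their part in the Lipe and Insig2 values was not tested. Stard4, which ferries cholesterol between membranes, was below the filter with 40 and 10 counts, a ratio of 4.49 (2.21 to 10.1).

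A fit of the 6 section libraries alone kept more of the 30 genes, because the filter no longer had to allow for the shallow Leydig-targeted libraries. It tested 25 of them, of which 20 were higher and 2 lower, against 30.2% and 36% of 7907 genes. Among those it added, Ebp rose by 3.13 ± 0.53 and Scap by 2.88 ± 0.53 (edgeR adjusted p = 1.23e-05 and 3.45e-05). Mvd rose by 2.34 ± 0.52, Stard4 by 1.88 ± 0.48, Lss by 1.21 ± 0.42 and Srebf2 by 1.13 ± 0.45. Cyp51, Scarb1 and Npc2, uncalled in the fit of all libraries, were called at 0.85 ± 0.32, 0.98 ± 0.34 and 0.79 ± 0.34 (adjusted p = 0.0236, 0.0138 and 0.0420). Fdft1 (-0.76 ± 0.43), Sqle (0.17 ± 0.37) and Npc1 (0.96 ± 0.45) again were not (adjusted p = 0.125, 0.698 and 0.0587). Lipe and Insig2 were the 2 lower genes, at -2.43 ± 0.48 and -1.34 ± 0.39.

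Between Leydig-targeted libraries, 7 of the 19 genes were higher and 1 lower in H3t KO, against 7.55% and 20.9% of all tested genes, and the 7 were also higher in sections. The median log2 difference was 1.09 over the 19 and -0.28 over all tested genes. Among those called, Fdps, Hsd17b7, Insig1 and Lipe passed the filter only through the genotype where they were high. Of the 19, 10 had every H3t KO library above every wild-type one, as did 13.5% of all tested genes. Scaled to Leydig marker counts, 0 were higher and 2 lower (Scarb1, -1.88, and Lipe), against 0.521% and 45.4% of all tested genes. Msmo1 had 1151, 957.5 and 723 CPM in H3t KO and 164, 186 and 336 in wild type, from 110 and 16 counts, without overlap (2.18 ± 0.62, adjusted p = 0.00356). Hmgcs1 had 472, 454 and 723 CPM against 91.1, 74.5 and 0 (2.49 ± 0.74, adjusted p = 0.00558). Nsdhl had 491, 328 and 460 CPM against 72.9, 37.2 and 168 (2.39 ± 0.76, adjusted p = 0.00991). In all 3 of these enzymes the groups were apart, and the highest wild-type value of Msmo1 and Nsdhl came from replicate 3, the shallowest library, where 1 count is worth 168 CPM.

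Acat2 had 434, 176 and 132 CPM in H3t KO and 18.2, 112 and 0 in wild-type Leydig-targeted libraries (2.35 ± 0.84, adjusted p = 0.0241). Fdps had 396, 101 and 263 CPM against 54.7, 37.2 and 0 (2.28 ± 0.86, adjusted p = 0.0318). Both lay higher in every H3t KO library, Acat2 by a narrow margin over wild-type replicate 2. Hsd17b7 had 132, 25.2 and 329 CPM from 13 counts, while wild type had no count (adjusted p = 0.0114). With wild type set to 3 counts in all, the limit that 0 counts allow, Hsd17b7 was 3.52-fold higher. That value takes the 13 counts as exact, so it is not a strict lower bound. Insig1, also at 13 counts against 0, had 56.6, 202 and 132 CPM in H3t KO, 3.52-fold higher on the same terms (adjusted p = 0.0111). Lipe was the lower gene, with no count in H3t KO and 36.4, 74.5 and 504 CPM in wild type from 7 counts (adjusted p = 0.0142). With H3t KO set to 3 counts in all, Lipe was 2.87-fold lower, again taking the 7 counts as exact. These calls rest on small counts, and each was lost in at least 1 fit that left out a library. Without wild-type Leydig-targeted replicate 1, on the same 5182 genes, 0 of the 7 higher calls held, with adjusted p from 0.0562 (Hmgcs1) and 0.0620 (Msmo1) through 0.0934 (Nsdhl), 0.134 (Fdps), 0.148 (Hsd17b7 and Insig1) to 0.333 (Acat2). Without wild-type replicate 3, Hmgcs1 (1.71), Nsdhl, Acat2 and Fdps were not called (adjusted p = 0.0777, 0.0643, 0.161 and 0.190). Fdps and Acat2 were also lost without H3t KO replicate 1 (adjusted p = 0.243 and 0.224), Lipe without it (0.120), Insig1 without H3t KO replicate 2 (0.107), and Hsd17b7 without H3t KO replicate 3 on the same genes (0.0588). Acat2 was lost as well without wild-type section replicate 1 or 2 or H3t KO section replicate 2 (0.0676, 0.0605 and 0.0608). Fdps was lost without any 1 section library (0.0515 to 0.155) and, on the same genes, without wild-type replicate 2 (0.0823) or H3t KO replicate 3 (0.0773), and Lipe, on the same genes, without H3t KO replicate 2 (0.0508). With the genes filtered anew after leaving out wild-type replicate 1, Hmgcs1 (3.61), Fdps (3.62) and Nsdhl (3.31) were called with larger differences. Acat2, Hsd17b7 and Insig1 were not called in that fit (edgeR adjusted p = 0.130, 0.0780 and 0.0821). Without wild-type replicate 2 the Acat2 difference was 4.20. Leaving out wild-type section replicate 3, Nsdhl (0.0603), Acat2 (0.133) and Fdps (0.155) were not called and Msmo1 was at 1.58.

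The other 11 tested genes were not called between the Leydig-targeted genotypes. Soat1 (472, 403 and 723 CPM against 291, 112 and 0), Dhcr7 (208, 227 and 132 against 18.2, 112 and 0) and Sc5d (283, 151 and 329 against 109, 112 and 0) had every H3t KO library above every wild-type one. Their log2 differences were 1.09 ± 0.62, 1.88 ± 0.88 and 1.04 ± 0.72 (adjusted p = 0.177, 0.0974 and 0.291), and under Leydig marker scaling those of Soat1 and Sc5d turned to -0.61 and -0.64. The signs of Fdft1, Sqle, Cyp51, Insig2 and Npc2 turned as well. Scarb1 had 27 counts in H3t KO and 22 in wild type, a ratio of count shares of 0.997 with a counting interval of 0.547 to 1.84. Cyp51 stood at 2.23 (0.958 to 5.81), Fdft1 at 1.57 (0.815 to 3.15), Sqle at 3.52 (0.968 to 19.3) and Npc2 at 1.73 (0.706 to 4.62). Insig2 had 5 and 2 counts and Npc1 5 and 4, too few to order the genotypes at this depth. Among untested genes, Mvd had 8 counts against 0 and Idi1 6 against 0, or 2.17-fold and 1.63-fold higher with wild type set to 3 counts. Those 2 values leave out the counting error of the 8 and 6 counts. Lss had 19 against 2, a ratio of 7.72 (1.86 to 68.4). In the wild-type Leydig-targeted libraries together, 16 of the 30 genes had at most 3 counts, and in H3t KO 5 had.

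Leydig-targeted libraries were also compared with entire sections of the same genotype. In wild type 2 of the 19 genes were higher and 0 lower (3.22% and 12.4% of all tested genes). Scarb1 had 219, 372 and 0 CPM in Leydig-targeted libraries and 53.0, 26.8 and 52.5 in sections (1.94 ± 0.59, adjusted p = 0.0122). Fdft1 had 237, 74.5 and 0 CPM against 30.01, 34.4 and 16.2 (1.90 ± 0.66, adjusted p = 0.0298). In both genes replicates 1 and 2 lay above every section and replicate 3, at 0 counts, below. Neither call was stable: Fdft1 was -0.20 without wild-type Leydig-targeted replicate 1 (adjusted p = 0.917), 2.58 without wild-type section replicate 2 and uncalled without wild-type section replicate 3 (0.0524), wild-type Leydig-targeted replicate 2 (0.0630) or H3t KO Leydig-targeted replicate 1 (0.0620). Scarb1 was uncalled without wild-type Leydig-targeted replicate 1 (1.48, adjusted p = 0.140) or 2 (1.23, adjusted p = 0.245), and stood at 2.56 without wild-type section replicate 3 and at 2.55 without wild-type Leydig-targeted replicate 3 on the same genes. With the replicate number as a block, Fdft1 was not called (1.79, adjusted p = 0.0709), which left Scarb1.

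In H3t KO, 2 genes were higher and 1 lower in Leydig-targeted libraries (1.91% and 3.53% of all tested genes). Fdft1 had 302, 202 and 329 CPM in Leydig-targeted libraries against 25.2, 15.3 and 18.6 in sections (3.50 ± 0.59, adjusted p = 2.86e-06). Every Leydig-targeted library was far above every section, and Fdft1 was called in every fit that left out a library, at 2.99 to 3.75. Ctsb, the overlapping gene, was also at a larger share there, with 1399 CPM over the summed H3t KO Leydig-targeted libraries and 514 over the sections, and its part in the Fdft1 value was not tested. Fdps had 396, 101 and 263 CPM against 39.9, 30.6 and 52.8, without overlap (2.44 ± 0.57, adjusted p = 0.00206), and was not called without H3t KO Leydig-targeted replicate 1 (1.45, adjusted p = 0.325) or H3t KO section replicate 1 (0.0563). Lipa had no count in any H3t KO Leydig-targeted library and 36, 32 and 35 counts in H3t KO sections (adjusted p = 0.0145). The Lipa call was lost without H3t KO Leydig-targeted replicate 1 (adjusted p = 0.0995) or, on the same genes, replicate 2 (0.0826). Macrophage markers summed to 1329 ± 1046 CPM in H3t KO Leydig-targeted libraries and 1952 ± 919 in sections, which overlapped. Summed over the 18 enzymes, Leydig-targeted libraries exceeded sections 2.22-fold in H3t KO and 2.30-fold in wild type, and every Leydig-targeted library lay above every section of its genotype. Leydig markers did so 1.80-fold and 4.23-fold.

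Whether the genotype difference depended on the region was tested as an interaction. Of the 19 genes, 0 were called in either direction (0.193% higher and 0.135% lower of all tested genes), with edgeR adjusted p of 0.505 or more. None of the 19 had an unadjusted edgeR p under 0.05, against 530 of all 5182 tested genes. DESeq2 called 0 of the 13 for which it gave an adjusted p, the other 6 having none. None of the 30 genes had all libraries higher in one region and all lower in the other. At the depth of the Leydig-targeted libraries, this does not show that the genotype differences were alike.

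Other genes of cholesterol handling gave a mixed picture. Of 51 such genes in 4 lists (chosen with earlier results of these data known), 48 were in the table and 24 tested, and 6 were higher and 4 lower in H3t KO sections, with a median of 0.58. Over all tested genes 22.6% were higher and 39.1% lower, so the share that was higher is near the background. The higher ones were Cd36, a scavenger and fatty acid receptor (2.83 ± 0.49), Cyp27a1, a mitochondrial sterol hydroxylase (2.71 ± 0.70), Tspo of the outer mitochondrial membrane (2.18 ± 0.62), Lrp1 (2.15 ± 0.49) and Lrp8 (1.32 ± 0.44), both lipoprotein receptors, and Acat1, the mitochondrial thiolase (1.48 ± 0.47). The lower ones were Rnf139, a sterol-regulated ubiquitin ligase (-6.45 ± 0.63), Abhd5, the activator of the droplet lipase Pnpla2 (-3.46 ± 0.49), Gramd1c, a sterol transfer protein (-3.23 ± 0.69), and Pnpla2 itself (-1.73 ± 0.44). Abhd5 had 31.5, 20.4 and 12.4 CPM in H3t KO sections and 131, 197 and 158 in wild type, so that it lay low in every H3t KO section, as Lipe did. Between Leydig-targeted libraries Cd36 (2.88 ± 0.91), Rnf145 and Cyp27a1 were higher, and Abhd5 (-3.07 ± 0.95) and Gramd1c lower, 3 and 2 of 24, against 7.55% and 20.9% of all tested genes. Rnf145 and Cyp27a1 had no count in wild type there and Gramd1c none in H3t KO. Leydig-targeted libraries exceeded sections for Gramd1b, a paralogue of Gramd1c, in both genotypes (1.87 ± 0.56 in wild type and 2.15 ± 0.49 in H3t KO), for Acat1 in wild type (1.75 ± 0.64), and fell short for Rnf139, Rnf145 and Pnpla2 in wild type and for Mbtps1, a protease that cuts SREBP, in H3t KO (-3.28 ± 0.82).

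Marker genes of the cells in the sections moved with these groups. In H3t KO sections all 12 tested Leydig markers, 7 of 8 Sertoli markers and 3 of 5 peritubular myoid markers were higher. All 14 spermatocyte and spermatid markers were lower, and 1 of 4 spermatogonia markers was higher and 3 lower. Over all tested genes 22.6% were higher and 39.1% lower. In H3t KO Leydig-targeted libraries 9 of 12 Leydig and 3 of 6 macrophage markers were higher, and 0 of 8 Sertoli markers were called. All 14 spermatocyte and spermatid markers were lower. Of 5 peritubular myoid and 4 spermatogonia markers, 0 were higher and 1 of each was lower. Over all tested genes 7.55% were higher and 20.9% lower. Sertoli markers summed to 13976 ± 143 CPM in H3t KO and 4078 ± 1372 in wild-type sections, a 3.43-fold difference. The single tested endothelial marker was not called in either genotype comparison. The part of each cell type in the results above was not tested.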

How the data were processed

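Counts per gene were deposited as a table of whole-number counts for 12 libraries, which the authors made with UMI-tools, Trim Galore, HISAT2 and featureCounts on GRCm38, per the submitters' processing notes. The sources used here give no versions, roles or strand setting. The 30 genes and all lists were chosen with earlier results of these data known. Genes were tested with edgeR 4.0.16 (R 4.3.3; robust quasi-likelihood test, TMM scaling, filterByExpr at a minimum count of 10) with the 12 libraries fitted together and each group as a coefficient, and p-values were adjusted by Benjamini-Hochberg over 5182 genes, the threshold being 0.05. The SE of a log2 difference was its absolute value divided by the square root of the F statistic, so it is an approximation. The code was tested on simulated data. The genes named were all 30 members, by levels, ratios or fits, and those called among the other lists. CPM is a count divided by the library's total, times 1000000, and 3 counts equal 5.30 to 12.1 CPM in sections and 54.7 to 504 in Leydig-targeted libraries. Ratios of summed counts carry exact binomial 95% intervals, which cover counting error only. Where a group had 0 counts it was set to 3, and no interval was given. Same-numbered H3t KO and wild-type sections deviated together weakly (correlations 0.243, 0.132 and 0.194), while differently numbered ones gave -0.149 to -0.0218. The labels do not say what same-numbered sections share, and the main fit did not use the numbers. Same-numbered pairs involving Leydig-targeted libraries did not deviate together (-0.107 to 0.056). Alternatives were other scalings and filters, DESeq2 1.42.0, the replicate block, fits of the 6 libraries compared and leaving out each library.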

Additional observations from a re-analysis of the deposited data

How the results depend on the processing

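Depth limits the Leydig-targeted results: in wild-type Leydig-targeted libraries 16 of the 30 genes had at most 3 counts in all. Every member called between sections kept its direction and call in each fit without 1 library that tested it, whereas no call between Leydig-targeted genotypes did so. Leaving out 1 library was also run on the same 5182 genes, an alternative chosen after seeing the data. With the replicate block, 11 members were higher and 2 lower between sections, as without it, and 1 in place of 2 was higher in wild-type Leydig-targeted libraries than in sections. The block changed no other call. In none of the settings was a member called in the interaction, where DESeq2 gave an adjusted p for 13 of 19. The counts of members called below stand beside the share of all tested genes only where that share is given. Elsewhere they do not separate a change in the members from a change over all genes.

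Between sections, 11 members were higher and 2 lower. Scaled to Leydig marker counts, 0 were higher and 8 lower, against 0.193% and 80.8% of all tested genes. In the 6 libraries compared 20 of 25 tested were higher, against 30.2% of 7907 genes. Without 1 library 7 to 19 were higher and 0 to 2 lower. Where genes were filtered anew without a section library, the called members Hsd17b7, Insig1, Lipa, Insig2 and Lipe fell below the filter and were not tested. On the same genes each of them was called without each library in turn.

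Between Leydig-targeted genotypes, 7 were higher and 1 lower. Scaled to Leydig markers the counts were 0 and 2, against 0.521% and 45.4% of all tested genes. In the 6 libraries compared, where only 4 members were tested, the counts were 3 and 0, and with no filter 0 were lower. Without 1 library, 0 to 9 were higher and 0 to 1 lower.

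For wild-type Leydig-targeted libraries against sections, 2 were higher and 0 lower. By library size alone 4 were higher. Scaled to Leydig markers 0 were higher and 3 lower. With a minimum count of 3, or no filter, 0 were higher and 1 lower. In the 6 libraries compared 1 of 6 tested was higher, and without 1 library 0 to 4 were higher and 0 to 1 lower. In H3t KO, 2 were higher and 1 lower, with 4 of 20 tested higher in the 6 libraries compared and 1 to 2 higher and 0 to 1 lower without 1 library.

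Leydig marker scaling moved all 19 members by -2.28 to -2.47 between sections, so the signs that turned say which TMM-scaled differences were smaller and nothing of single genes. Of the 19, 10 turned: Acat2 (-0.23), Hmgcs1 (-0.64), Cyp51 (-1.98), Msmo1 (-0.17), Nsdhl (-0.54), Scarb1 (-1.68), Insig1 (-0.53), Npc1 (-1.67), Npc2 (-1.85) and Soat1 (-0.78). Between Leydig-targeted genotypes 7 turned: Sc5d (-0.64), Soat1 (-0.61), Fdft1, Sqle, Cyp51, Insig2 and Npc2. That scaling divides by a marker sum which itself differed 7.48-fold and 3.17-fold. Sqle between sections was 0.44 by library size alone, 0.16 with no filter, 0.17 in the 6 libraries compared and -0.35 to 0.47 without 1 library. Fdft1 in wild type, Leydig-targeted against sections, was -0.20 to 2.58 without 1 library. For the values that moved under other scalings, filters or left-out libraries, the cause was not tested.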
